A study of Mus musculus with 12 samples.

Results

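Type I interferon-stimulated genes are the genes that cells switch on after an interferon of the alpha or beta kind reaches its receptor. A list of 36 such genes was read out of 39462 genes measured on 12 mouse arrays, by matching the gene symbols of the deposited gene-level table. The list was chosen with earlier results of these data known. All 36 symbols were found, each with 1 transcript cluster (the array's unit for a transcript locus). The list holds transcription factors of the pathway and effectors against viruses.

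The samples were splenocytes of the OT-I strain, whose CD8 T cells carry 1 transgenic receptor for an ovalbumin peptide. They were primed in culture for 4 days with N4, the strong form of that peptide, or with Y3, an altered form known to act more weakly. Each peptide was used without and with corticosteroid, which gave the groups N4, N4 plus corticosteroid, Y3 and Y3 plus corticosteroid, of 3 arrays each. All groups shared the OT-I receptor, the medium and the day of harvest. The labels name neither the corticosteroid nor its dose, nor the age of the mice or a sort for T cells. The titles call the replicates biological and number them 1 to 3, without saying whether mice or cultures differed, so p-values measured the spread between arrays, which may in part be technical.

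An interferon bound to the receptor chains IFNAR1 and IFNAR2 activates the kinases JAK1 and TYK2, which phosphorylate STAT proteins, STAT2 among them. With IRF9 these form ISGF3, a complex that binds the interferon-stimulated response element, and IRF7 amplifies the loop by driving more interferon. In T cells the response is known to restrain viral growth and to alter expansion and survival, and interferon gamma, which activated CD8 T cells make themselves, induces part of the same genes.

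The response element has the core GAAA, any 2 bases, GAAA, searched here on both strands, which in the promoter is read as TTTC, 2 bases, TTTC where it lies on the other strand. RefSeq promoter windows of the mouse build GRCm38.p6, from 250 bases before to 50 after a start, were at hand for 27 of the 36 genes. Of these, 14 (51.9%) held the core, against 3.99% of 27025 genes with a window of the same length. In the bases before the start alone the shares were 40.7% and 3.46%. The promoter of Isg15, which encodes a ubiquitin-like modifier, held 3 overlapping cores, first bases at -78, -72 and -66 from the start, and its 250 upstream bases are shown because the whole motif cluster fits in them. The shorter stretches are the cores, with the bases around them, of 7 further genes that were higher in Y3-primed cells with the replicate block in both peptide comparisons, given so that the spacing can be compared. Capitals mark the cores, and each sequence runs 5′ to 3′ on the gene's strand.
Isg15 (chr4:156200819-156201068, minus strand): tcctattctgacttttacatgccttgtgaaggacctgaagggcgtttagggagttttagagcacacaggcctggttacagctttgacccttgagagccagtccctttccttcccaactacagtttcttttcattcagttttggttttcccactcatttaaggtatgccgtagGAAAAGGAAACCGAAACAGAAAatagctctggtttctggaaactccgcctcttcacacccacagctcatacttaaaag
Ifit3 (chr19:34583363-34583426, plus strand): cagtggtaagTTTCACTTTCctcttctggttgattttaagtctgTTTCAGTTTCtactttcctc
Ifit1bl1 (chr19:34599431-34599460, minus strand): actctgtaggTTTCATTTTCtgtaagttgg
Oas1a (chr5:120907520-120907555, minus strand): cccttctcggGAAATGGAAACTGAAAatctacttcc
Ddx60 (chr8:61928024-61928087, plus strand): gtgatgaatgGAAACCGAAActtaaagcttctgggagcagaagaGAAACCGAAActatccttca
Rsad2 (chr12:26456553-26456582, minus strand): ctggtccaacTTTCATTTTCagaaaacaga
Ddx58 (chr4:40239804-40239833, minus strand): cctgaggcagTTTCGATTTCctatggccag
Trim30a (chr7:104446104-104446133, minus strand): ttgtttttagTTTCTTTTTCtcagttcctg

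Ifit3 and Ddx60 each held 2 separate cores, Oas1a held 2 that overlapped, and Ifit1bl1, Rsad2, Ddx58 and Trim30a held 1 in the window shown. Bst2, Eif2ak2, Ifih1, Ifit1, Oas3 and Stat2 also held the core, are not shown, and did not pass with the block in both peptide comparisons. Irf7, Irf9, Rnf213, Herc6, Cmpk2, Xaf1, Samd9l, Ifi35, Ifi44, Isg20, Ifit2, Oasl1 and Oasl2 had a window without these letters. The gamma-activated site, searched as TTCNNNGAA on both strands, was in the windows of 6 of the 27 genes (22.2%), against 9.55% of all genes. The sizes of the peptide difference can be set beside the motif. The 14 genes with it had a median Y3 minus N4 difference of 1.12 (log2) without corticosteroid, the 13 with a window lacking it 0.91 and the 9 with no window 1.27. With corticosteroid the medians were 1.04, 1.15 and 1.01. With the block, 8 of the 14 genes with the motif passed in both comparisons, 8 of the 13 with a window lacking it and 5 of the 9 with no window. No test was made of these medians or counts.

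Values are log2 signals, 1 unit being a 2-fold step, and levels are not compared between genes, since each has its own probes. Of the 36 genes, 21 lay above the brightest background control on all 12 arrays, 12 on some arrays and 3 (Oas2, Oasl1 and Oasl2) on none. That line lay at 5.41 to 6.40. Differences are given with the limma standard error (n = 3 per group), means with the SD, and p-values are Benjamini-Hochberg adjusted across the 39462 genes and count as passed under 0.05. Where arrays of the dimmer group lay below that line they were set at it for the fold, which is then a lower bound. Where a gene's arrays are listed, each group's 3 values are in the order of replicates 1, 2 and 3. Because arrays of 1 replicate number deviated together, each difference is given without and with the number as a block.

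The first question was whether the genes differ between Y3 and N4 priming without corticosteroid. All 36 were higher on average in Y3-primed cells, against 49.3% of all genes, with a median difference of 1.12 against 0.00 over all genes, and the range ran from 0.24 (Oasl1) to 2.55 (Ifit1bl1). Since earlier results of these data were known when the list was chosen, the shares over all genes here and below describe it and are no independent test. The 3 Y3 arrays all lay above the 3 N4 arrays in 31 of the 36, where 5.24% of all genes had groups that did not overlap in this direction. By limma without the block 2 genes passed the test, Ifit3 and Oas2, both with an adjusted p of 0.0268, where 0.0152% of all genes were called higher. Oas2 lay below the background line on all 12 arrays, and Ifit3 on all 3 N4 arrays. With the block 23 passed as higher and 0 as lower, against 1.7% and 1.24% of all genes. In these mixed RNAs, more cells of 1 kind and more RNA per cell cannot be told apart.

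**Figure D1:**
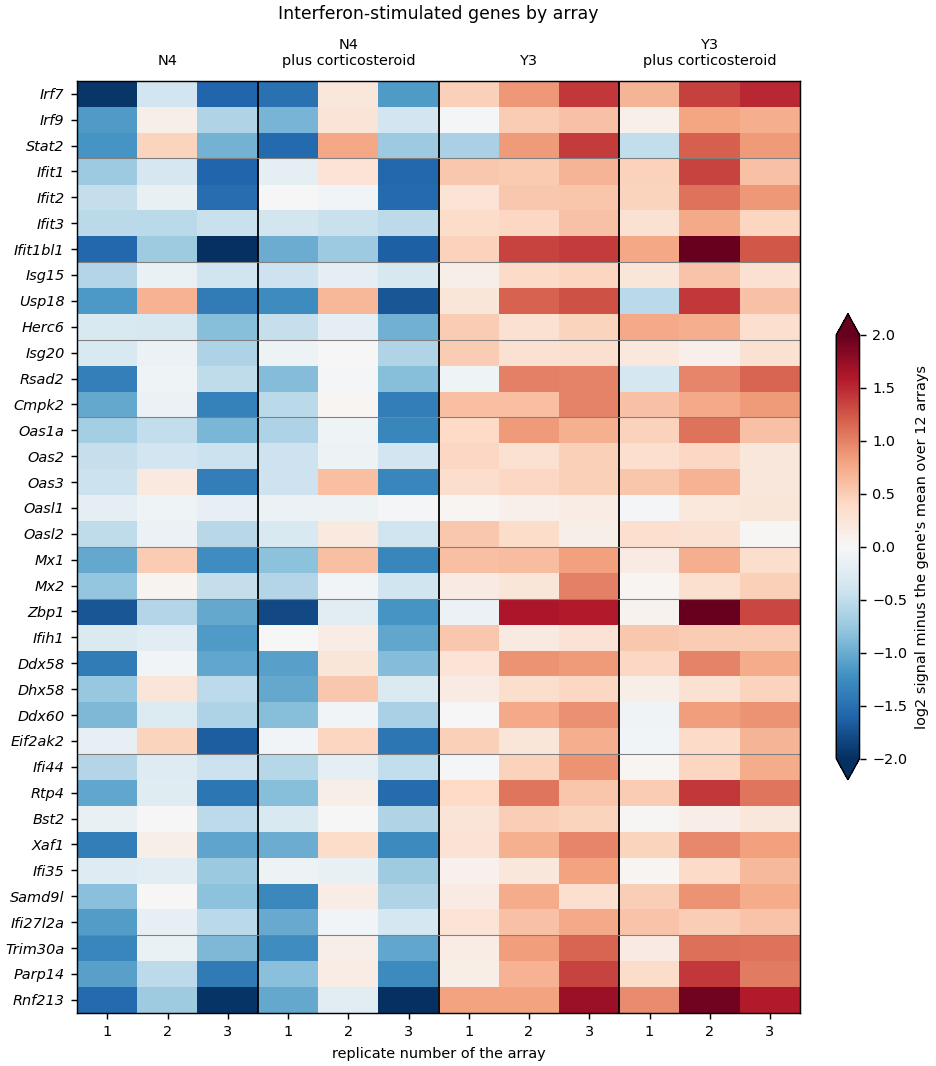
Log2 signal of each of the 36 genes (a row each, ordered by role, grey lines between roles) on the 12 arrays (a column each, by group and replicate number), as the distance from the gene's mean over all arrays, with the colour scale ending at 2 either way. The N4 columns are mostly blue and the Y3 columns mostly red, with or without corticosteroid, and replicate 2 is the palest of the N4 arrays.

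The second question was whether the same holds under corticosteroid. Again all 36 genes had a higher mean with Y3, against 48% of all genes, with a median difference of 1.04 against -0.01 over all genes and a range of 0.22 (Oasl1) to 2.67 (Rnf213). The groups did not overlap for 26 genes, against 7.91% of all genes. Without the block Ifit3 (adjusted p 0.0288) and Oas2 (adjusted p 0.0462) passed, against 0.0786% of all genes. Of the N4 arrays with corticosteroid, 1 lay above the background line for Ifit3 and 0 for Oas2. With the block 21 genes passed as higher and 0 as lower, against 3.44% and 3.09% of all genes. With the block 21 genes passed in both comparisons, while Isg20 and Oasl2 passed only without corticosteroid. The comparisons share no array but are not independent, since they share 1 estimate of the spread. Same-numbered arrays also deviated together across corticosteroid, with correlations of 0.65 to 0.81 between the N4 groups and 0.52 to 0.75 between the Y3 groups. Between the peptides, which the block pairs here, the correlations were weaker for replicates 2 and 3. They were 0.67, 0.11 and 0.42 for replicates 1, 2 and 3 without corticosteroid, and 0.55, 0.27 and 0.25 with it. N4 replicate 3 correlated with Y3 replicate 2, of another number, at 0.42 without corticosteroid and 0.40 with it. All 6 Y3 arrays lay above all 6 N4 arrays for 23 of the 36 genes, against 1.46% of all genes.

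**Figure D2:**
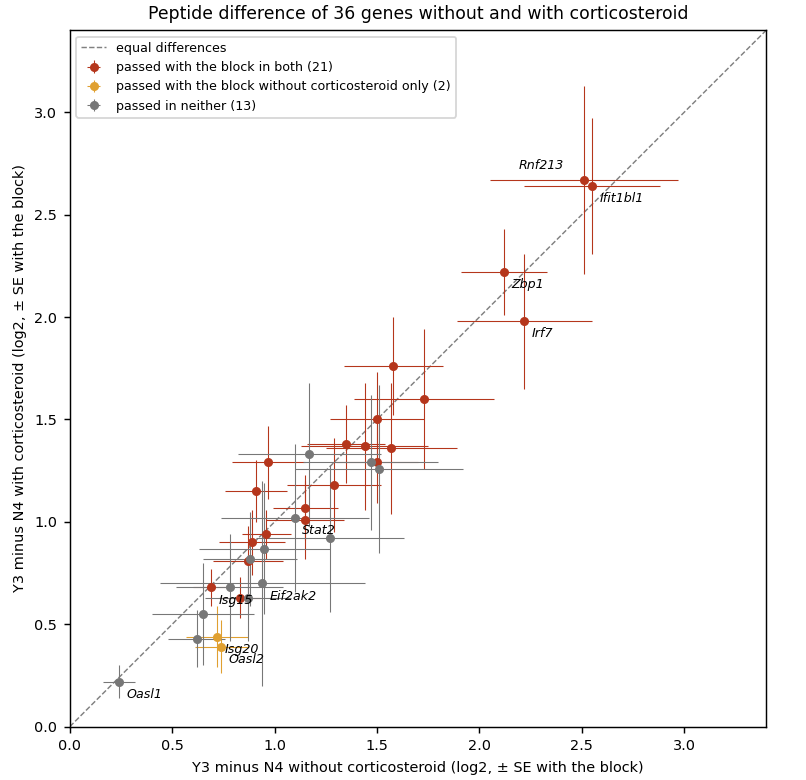
Y3 minus N4 difference (log2) of each of the 36 genes without corticosteroid (horizontal) and with it (vertical), bars being the limma standard error with the replicate block and colours the result of that test. All points lie above 0 on both axes and near the dashed line of equal differences, the widest gap between the 2 differences of a gene being 0.35.

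The transcription factors were led by Irf7. On the arrays Irf7 read 7.10, 8.67 and 7.46 with N4, 7.55, 9.27 and 7.92 with N4 plus corticosteroid, 9.52, 9.92 and 10.46 with Y3 and 9.72, 10.41 and 10.55 with Y3 plus corticosteroid. All 6 Y3 arrays exceeded all 6 N4 arrays, and replicate 2 was the highest of each N4 group. The Y3 mean was 2.22 higher without corticosteroid (4.67-fold), with an SE of 0.50 and an adjusted p of 0.222 without the block, and 0.33 and 0.0116 with it. With corticosteroid it was 1.98 higher (3.94-fold), and the adjusted p was 0.145 without and 0.01 with the block. Irf9, the DNA-binding subunit of ISGF3, read 8.64, 9.89 and 9.17 with N4, 8.84, 10.02 and 9.38 with N4 plus corticosteroid, 9.73, 10.28 and 10.35 with Y3 and 9.87, 10.55 and 10.50 with Y3 plus corticosteroid. Its groups overlapped through N4 replicate 2, and its differences of 0.89 and 0.90 passed with the block only (adjusted p 0.0223 and 0.0127). Stat2, the subunit that activates transcription, read 10.19, 11.82 and 10.43 with N4, 9.81, 12.15 and 10.65 with N4 plus corticosteroid, 10.73, 12.23 and 12.77 with Y3 and 10.88, 12.57 and 12.23 with Y3 plus corticosteroid. Its ranges overlapped widely, and 1.10 ± 0.73 and 1.02 ± 0.73 did not pass, also with the block (adjusted p 0.154 and 0.146).

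Among the sensors of foreign nucleic acid, Zbp1, which binds nucleic acid in the Z form and can trigger cell death, had the lowest adjusted p of the 36 with the block. Zbp1 read 8.86, 9.99 and 9.55 with N4, 8.76, 10.35 and 9.39 with N4 plus corticosteroid, 10.45, 12.18 and 12.15 with Y3 and 10.64, 12.61 and 11.91 with Y3 plus corticosteroid. The highest N4 array lay just under the lowest Y3 array. The differences were 2.12 (4.36-fold) and 2.22 (4.65-fold), with an SE of 0.62 and adjusted p of 0.336 and 0.176 without the block, and 0.21, 0.00291 and 0.00133 with it. Ddx58, which encodes the RNA sensor RIG-I, read 8.49, 9.83 and 8.85 with N4, 8.80, 10.12 and 9.02 with N4 plus corticosteroid, 10.15, 10.78 and 10.74 with Y3 and 10.30, 10.88 and 10.63 with Y3 plus corticosteroid, with Y3 above N4 throughout and differences of 1.5 and 1.29 that passed with the block (adjusted p 0.00734 and 0.00712). Ddx60, a helicase reported to aid RNA sensing, read 5.12, 5.75 and 5.40 with N4, 5.17, 5.96 and 5.37 with N4 plus corticosteroid, 6.01, 6.78 and 6.93 with Y3 and 5.94, 6.85 and 6.91 with Y3 plus corticosteroid. Its N4 groups were above the background line on 1 of 3 arrays each, the groups with corticosteroid overlapped, and 1.15 and 1.07 passed with the block (adjusted p 0.00939 and 0.00699). Ifih1 (the sensor MDA5), Dhx58 (LGP2, their regulator) and Eif2ak2 (the kinase PKR, which halts translation) had differences of 0.88, 0.65 and 0.94 without corticosteroid and 0.82, 0.55 and 0.70 with it, and none of the 3 passed. In the arrays of replicate 2, Eif2ak2 was not higher with Y3, at -0.19 without and -0.05 with corticosteroid, and Dhx58 stood at 0.10 and -0.23.

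The IFIT proteins bind viral RNA and block its translation, and the 4 of their genes among the 36 lie together on mouse chromosome 19. Ifit3 was the most even of them. It read 5.58, 5.59 and 5.68 with N4, 5.76, 5.67 and 5.60 with N4 plus corticosteroid, 6.49, 6.54 and 6.71 with Y3 and 6.42, 6.88 and 6.55 with Y3 plus corticosteroid. All Y3 arrays stood above all N4 arrays, and the N4 arrays without corticosteroid were all below background. Ifit3 was therefore at least 1.59-fold higher without corticosteroid (0.96 ± 0.12 on the log2 scale) and at least 1.75-fold higher with it (0.94 ± 0.12), and with the block the adjusted p was 0.00516 and 0.00347. Ifit1bl1, a mouse relative of Ifit1, read 4.99, 5.85 and 4.43 with N4, 5.57, 5.83 and 4.93 with N4 plus corticosteroid, 7.03, 7.91 and 7.97 with Y3 and 7.33, 9.12 and 7.81 with Y3 plus corticosteroid. Its differences were 2.55 (SE 0.50 without and 0.33 with the block) and 2.64 with corticosteroid, and it passed with the block (adjusted p 0.00713 and 0.00351) and not without (0.162 and 0.0707). In N4 and N4 plus corticosteroid 1 of 3 arrays each was above background, and with the others set at the background line Ifit1bl1 was at least 3.23-fold and 5.06-fold higher with Y3, by 1.69 and 2.34 (log2), so its place as the widest fitted difference without corticosteroid rests on signals below that line. Ifit1 read 6.11, 6.49 and 5.24 with N4, 6.64, 7.10 and 5.26 with N4 plus corticosteroid, 7.37, 7.36 and 7.51 with Y3 and 7.29, 8.18 and 7.42 with Y3 plus corticosteroid, and had differences of 1.47 and 1.29 with adjusted p of 0.051 and 0.0509 with the block, just outside the threshold, although its 6 Y3 arrays exceeded its 6 N4 arrays. Ifit2 read 7.18, 7.51 and 6.14 with N4, 7.66, 7.60 and 6.11 with N4 plus corticosteroid, 7.93, 8.19 and 8.21 with Y3 and 8.11, 8.74 and 8.52 with Y3 plus corticosteroid. It was likewise without overlap, and 1.17 and 1.33 did not pass (adjusted p 0.127 and 0.0593 with the block). In the RefSeq gene table the record of Ifit1, from its first to its last base, lies within that of Ifit1bl1, which includes predicted transcripts, and how far their probes share signal was not tested.

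The OAS enzymes make a messenger that switches on RNA decay, and all 5 genes of the family among the 36 lie on chromosome 5. Oas1a read 5.85, 6.05 and 5.62 with N4, 5.92, 6.45 and 5.23 with N4 plus corticosteroid, 6.94, 7.39 and 7.24 with Y3 and 6.99, 7.63 and 7.13 with Y3 plus corticosteroid. Every Y3 array was above every N4 array, and 1.35 and 1.38 (at least 2.26-fold and 2.27-fold) passed with the block (adjusted p 0.00918 and 0.00491). Oas2 read 4.71, 4.80 and 4.75 with N4, 4.76, 5.07 and 4.79 with N4 plus corticosteroid, 5.59, 5.48 and 5.66 with Y3 and 5.52, 5.59 and 5.40 with Y3 plus corticosteroid. Its arrays did not overlap, but all 12 lay below the background line, so its differences of 0.83 ± 0.10 and 0.63 ± 0.10, which passed without and with the block, are given with no fold. Oasl2, a related gene, lay below the line too, read 4.52, 4.90 and 4.47 with N4, 4.72, 5.21 and 4.62 with N4 plus corticosteroid, 5.56, 5.39 and 5.14 with Y3 and 5.35, 5.32 and 5.05 with Y3 plus corticosteroid, and passed with the block without corticosteroid (0.74, adjusted p 0.0186) and not with it (0.39, 0.118). Oas3 was 0.95 and 0.87 higher and Oasl1, below background on all 12 arrays, 0.24 and 0.22 higher, and neither passed.

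ISG15 is joined to other proteins much as ubiquitin is. Isg15 read 5.50, 5.96 and 5.68 with N4, 5.67, 5.89 and 5.77 with N4 plus corticosteroid, 6.21, 6.47 and 6.51 with Y3 and 6.33, 6.65 and 6.39 with Y3 plus corticosteroid. The lowest Y3 array, at 6.21, exceeded the highest N4 array, at 5.96. The differences of 0.69 (at least 1.33-fold) and 0.68 (at least 1.58-fold) had adjusted p of 0.166 and 0.0804 without the block and 0.00561 and 0.0035 with it. Herc6, the mouse ligase that attaches ISG15, read 9.14, 9.13 and 8.59 with N4, 8.98, 9.27 and 8.48 with N4 plus corticosteroid, 9.95, 9.76 and 9.90 with Y3 and 10.21, 10.17 and 9.79 with Y3 plus corticosteroid, without overlap, and 0.91 and 1.15 passed with the block (adjusted p 0.0162 and 0.00382). Usp18, the protease that removes ISG15 and damps receptor signalling, read 6.62, 8.46 and 6.37 with N4, 6.50, 8.42 and 6.05 with N4 plus corticosteroid, 8.01, 8.94 and 9.04 with Y3 and 7.23, 9.17 and 8.35 with Y3 plus corticosteroid. Its replicate 2 arrays were high in both N4 groups, its groups overlapped, and 1.51 and 1.26 did not pass (adjusted p 0.0928 and 0.123 with the block).

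The enzymes that act on nucleotides and RNA were higher as well. Rsad2 (viperin, which makes a chain-terminating nucleotide) read 5.08, 6.35 and 5.94 with N4, 5.57, 6.42 and 5.59 with N4 plus corticosteroid, 6.35, 7.45 and 7.44 with Y3 and 6.09, 7.42 and 7.60 with Y3 plus corticosteroid, and 1.29 and 1.18 passed with the block (adjusted p 0.0206 and 0.018), although the groups with corticosteroid overlapped. Cmpk2, a mitochondrial nucleotide kinase next to Rsad2, read 6.68, 7.58 and 6.35 with N4, 7.17, 7.75 and 6.32 with N4 plus corticosteroid, 8.30, 8.30 and 8.70 with Y3 and 8.29, 8.47 and 8.55 with Y3 plus corticosteroid, with no overlap, and 1.57 and 1.36 passed (adjusted p 0.0382 and 0.0389). Isg20, an RNA exonuclease, read 8.02, 8.21 and 7.70 with N4, 8.22, 8.32 and 7.72 with N4 plus corticosteroid, 8.83, 8.62 and 8.64 with Y3 and 8.53, 8.42 and 8.63 with Y3 plus corticosteroid. It passed with the block without corticosteroid (0.72, adjusted p 0.0413) and not with it (0.44, 0.143). The Mx GTPases, which bind viral nucleocapsids, are annotated as transcribed pseudogenes in the RefSeq table. Mx1 was 1.27 and 0.92 higher and Mx2 0.87 and 0.63 higher, and neither passed, also with the block.

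The ubiquitin and ADP-ribose enzymes all passed with the block in both comparisons. Rnf213, a large ubiquitin ligase that can tag bacteria, read 9.50, 10.34 and 9.09 with N4, 10.02, 10.82 and 8.77 with N4 plus corticosteroid, 11.86, 11.85 and 12.76 with Y3 and 11.99, 12.98 and 12.63 with Y3 plus corticosteroid. The highest N4 array, at 10.82, stood well below the lowest Y3 array, at 11.85. The differences were 2.51 (5.71-fold) and 2.67 (6.34-fold), SE 0.51 without and 0.46 with the block, and adjusted p 0.166 and 0.0739 without the block, and 0.0237 and 0.0112 with it. Parp14, an ADP-ribosyltransferase, read 9.53, 10.08 and 9.20 with N4, 9.77, 10.75 and 9.34 with N4 plus corticosteroid, 10.72, 11.30 and 11.96 with Y3 and 10.98, 12.03 and 11.65 with Y3 plus corticosteroid. It was 1.73 and 1.60 higher (adjusted p 0.032 and 0.0257 with the block), and N4 plus corticosteroid replicate 2, at 10.75, exceeded the lowest Y3 array, at 10.72, which had no corticosteroid. Trim30a, a mouse TRIM protein that damps inflammatory signalling, read 10.65, 11.81 and 11.05 with N4, 10.71, 12.06 and 10.91 with N4 plus corticosteroid, 12.10, 12.79 and 13.11 with Y3 and 12.11, 13.05 and 13.03 with Y3 plus corticosteroid. It was 1.5 higher in both, and passed with the block (adjusted p 0.0137 and 0.00761).

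Of the 7 other effectors, 5 passed with the block in both comparisons. Rtp4, a chaperone that restrains flaviviruses, read 6.31, 7.12 and 5.91 with N4, 6.51, 7.47 and 5.81 with N4 plus corticosteroid, 7.75, 8.42 and 7.91 with Y3 and 7.86, 8.77 and 8.42 with Y3 plus corticosteroid, which gave 1.58 and 1.76 (at least 2.82-fold and 3.36-fold, adjusted p 0.012 and 0.00448). Xaf1, a pro-apoptotic factor, read 8.45, 9.95 and 8.78 with N4, 8.85, 10.21 and 8.57 with N4 plus corticosteroid, 10.13, 10.55 and 10.81 with Y3 and 10.28, 10.80 and 10.66 with Y3 plus corticosteroid, with differences of 1.44 and 1.37 (adjusted p 0.0453 and 0.0329). Samd9l, a translation inhibitor, read 8.91, 9.74 and 8.93 with N4, 8.46, 9.89 and 9.14 with N4 plus corticosteroid, 9.91, 10.49 and 10.08 with Y3 and 10.24, 10.64 and 10.49 with Y3 plus corticosteroid, with differences of 0.97 and 1.29 (adjusted p 0.0243 and 0.00492). In these 3 genes the Y3 arrays exceeded the N4 arrays within each corticosteroid condition, and replicate 2 was the highest N4 array. Ifi27l2a, a small mitochondrial protein, was bright on all arrays and read 12.31, 13.27 and 12.89 with N4, 12.42, 13.38 and 13.08 with N4 plus corticosteroid, 13.71, 14.02 and 14.19 with Y3 and 14.00, 13.92 and 14.00 with Y3 plus corticosteroid, and 1.15 and 1.01 passed (adjusted p 0.0165 and 0.0154). Ifi44 read 4.60, 4.93 and 4.75 with N4, 4.62, 5.0 and 4.69 with N4 plus corticosteroid, 5.16, 5.64 and 6.09 with Y3 and 5.22, 5.61 and 5.93 with Y3 plus corticosteroid. It was above the background line on 2 of 12 arrays, both of Y3 without corticosteroid. Its differences of 0.87 and 0.81 passed (adjusted p 0.0279 and 0.022) with no fold given, and with corticosteroid both groups lay wholly below that line. Bst2 (tetherin, which holds budding virions) and Ifi35 had differences of 0.62 and 0.78 without corticosteroid and 0.43 and 0.68 with it, and did not pass.

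The size of the difference varied between the replicate numbers. Without corticosteroid the median over the 36 genes was 1.03 in the arrays of replicate 1, 0.68 in replicate 2 and 1.59 in replicate 3, and with corticosteroid 0.97, 0.74 and 1.57. The difference within replicate 3 was wider than that within replicate 2 for 36 of 36 genes without corticosteroid and for 32 with it. The N4 arrays of replicate 2 were the highest N4 arrays for 34 genes without corticosteroid, against 18.8% of all genes, and for 32 with it, against 22.6%. The Y3 arrays of replicate 1 were the lowest Y3 arrays for 27 and 29 genes, against 41.8% and 39.8% of all genes. The genes also spread more among N4 than among Y3 arrays, with a median SD of 0.55 and 0.67 in N4 without and with corticosteroid and 0.27 and 0.30 in Y3. Over the 13747 genes above background on all 12 arrays the same medians were 0.32, 0.30, 0.23 and 0.19. Even so, Y3 was higher in all 3 replicate numbers for 35 genes without corticosteroid, against 15.5% of all genes, and for 34 with it, against 17.9%.

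**Figure D3:**
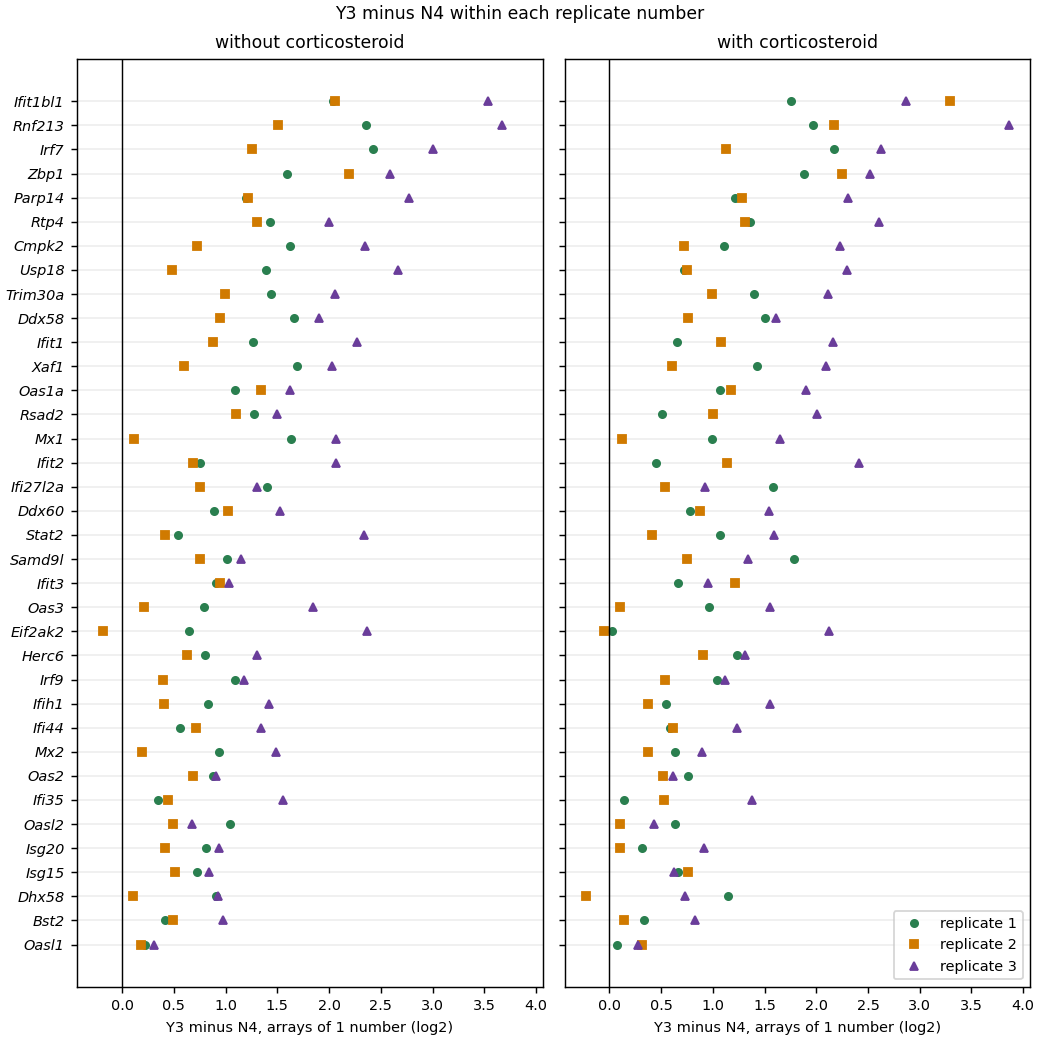
Y3 minus N4 difference (log2) between the arrays of the same replicate number for each of the 36 genes, ordered by the mean difference without corticosteroid, in the left panel without and in the right panel with corticosteroid. Nearly all points are to the right of 0, replicate 3 is mostly farthest right, and replicate 2 of Eif2ak2 (both panels) and of Dhx58 (right panel) are the points to the left of 0.

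The number of calls changed with the replicate number that was left out. Each such fit has fewer arrays, and whether their loss or particular arrays moved the calls was not tested. When all 4 arrays of a number were left out, the genes that passed with the block without corticosteroid were 2 without replicate 1, 2 without replicate 2 and 13 without replicate 3, where 0.302%, 0.0481% and 0.92% of all genes were called higher. With corticosteroid they were 3, 3 and 18, against 0.459%, 0.137% and 3.72% of all genes. The medians stayed between 0.79 and 1.35 under these omissions.

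The next 2 comparisons asked whether corticosteroid moved the genes under each peptide. In N4-primed cells the median difference with minus without corticosteroid was 0.09, 32 of 36 genes had a mean above 0 (51.5% of all genes did), and the values ran from -0.16 (Usp18) to 0.50 (Irf7). By limma 0 of the 36 passed without or with the block, and 0 had an unadjusted p under 0.05, where over all genes 0 passed without the block and 1 with it (0% and 0.00253% called higher) and 749 (1.9%) and 1312 (3.32%) had an unadjusted p under 0.05. The groups overlapped for all 36 genes, where 2.77% of all genes were higher and 2.23% lower without overlap, and 12 genes were higher and 2 lower in all 3 replicate numbers, against 14.3% and 13.5% of all genes. Irf7 was 0.50 ± 0.33 higher (SE with the block), by 0.44, 0.60 and 0.46 in the replicate numbers (unadjusted p 0.162 with the block, adjusted p 1.00). Ifit1 (0.39) and Ifit1bl1 (0.35) followed, and Bst2 (-0.08) and Herc6 (-0.04) stood next to Usp18 at the low end.

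In Y3-primed cells the median was 0.04 (-0.08 after centring on the negative controls), 22 of 36 genes had a mean above 0 (50% of all genes did), and the values ran from -0.41 (Usp18) to 0.45 (Ifit1bl1). Again 0 genes passed by limma without or with the block, and 0 had an unadjusted p under 0.05, where over all genes 0 passed in either fit (0% called higher) and 1259 (3.19%) and 2649 (6.71%) had an unadjusted p under 0.05. Bst2 had the lowest p of the 36. Bst2 read 12.70, 12.85 and 12.33 with N4, 12.55, 12.84 and 12.25 with N4 plus corticosteroid, 13.11, 13.34 and 13.30 with Y3 and 12.88, 12.98 and 13.07 with Y3 plus corticosteroid, so that each Y3 array with corticosteroid lay below each without (4.16% of all genes did so, and 4.27% the reverse), with a difference of -0.27 ± 0.14 (SE with the block) and an adjusted p of 0.812. Rnf213 (0.38) and Ifit2 (0.35) were next at the high end, and Mx1 (-0.27) came after Usp18 and Bst2 at the low end. Mx1 read 5.77, 7.31 and 5.55 with N4, 5.97, 7.40 and 5.49 with N4 plus corticosteroid, 7.40, 7.42 and 7.62 with Y3 and 6.96, 7.52 and 7.14 with Y3 plus corticosteroid, and its Y3 groups overlapped.

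**Figure D4:**
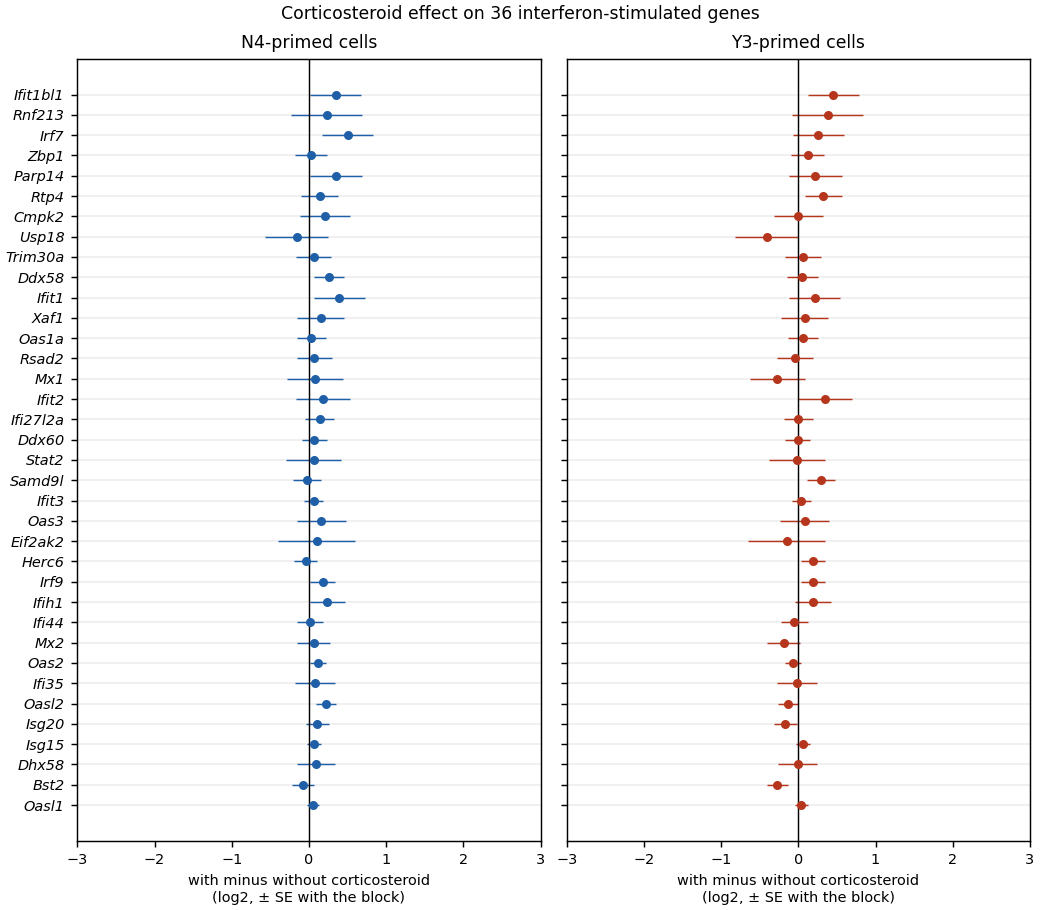
Difference with minus without corticosteroid (log2) of the 36 genes in N4-primed cells (left) and Y3-primed cells (right), bars being the limma standard error with the replicate block, on an axis as wide as the peptide differences. All points lie between -0.41 and 0.50, and 0 of them passed the test.

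The last comparison asked whether the corticosteroid effect differs between the peptides, which is the same as whether the peptide difference changes with corticosteroid. By limma 0 of the 36 genes passed without or with the block, where 0% of all genes were called in either direction. The median difference of effects was -0.08 (log2, effect in Y3 minus effect in N4), and 10 of 36 genes were above 0 (48.6% of all genes were). The range ran from -0.35 (Oasl2 and Mx1) to 0.32 (Samd9l), Isg20 came after these at the low end with -0.28, and Herc6 (0.23) and Rtp4 (0.18) followed Samd9l. The lowest unadjusted p was 0.195 without the block and 0.0811 with it. Over all genes 674 (1.71%) and 1102 (2.79%) had an unadjusted p under 0.05.

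The pathway above these genes was read from lists of its other parts. Of 15 genes of the receptor and its signalling, 3 were higher in Y3-primed cells with the block both without and with corticosteroid, Ifnar1, Jak1 and Irf1, and 0 passed without the block. Over all genes 1.7% were called higher with the block without corticosteroid and 3.44% with it. Irf1, a transcription factor induced by interferons, read 8.27, 10.08 and 10.32 with N4, 8.58, 10.78 and 10.77 with N4 plus corticosteroid, 9.58, 11.08 and 11.90 with Y3 and 10.45, 12.28 and 11.91 with Y3 plus corticosteroid, and 1.30 and 1.5 passed (adjusted p 0.0126 and 0.00407). Irf1 was lowest in replicate 1 of every group. Ifnar1 was 0.90 and 0.96 higher (adjusted p 0.00836 and 0.00373) and the kinase gene Jak1 0.71 and 0.88 higher (adjusted p 0.0395 and 0.00984). Ifnar2, the other receptor chain, differed by 0.16 ± 0.24 and 0.09 ± 0.24 (SE with the block) and did not pass. Ptpn2, a phosphatase that removes phosphate from JAK1, differed by -0.64 under corticosteroid (adjusted p 0.0364 with the block) and did not pass without it (-0.55).

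The interferons themselves were mostly not measurable. Of 20 ligand genes, 19 lay below background on all 12 arrays, Ifnb1 among them at 4.35 to 5.13, and 0 passed in either comparison. Ifng, the interferon of activated T cells, was above background on 10 arrays, and read 15.06, 8.39 and 9.78 with N4, 12.93, 5.47 and 6.78 with N4 plus corticosteroid, 9.05, 6.0 and 8.94 with Y3 and 6.38, 4.30 and 6.63 with Y3 plus corticosteroid. The replicate 2 arrays with corticosteroid, at 5.47 and 4.30, were those below background. Its Y3 minus N4 difference was -3.08 ± 1.18 without and -2.62 ± 1.18 with corticosteroid (SE with the block). The Y3 array was the lower in all 3 replicate numbers of both comparisons, as for 15.2% and 18.1% of all genes. The N4 arrays of replicate 1 stood far above the others, and the test was not passed (adjusted p 0.238 and 0.283 with the block). With corticosteroid Ifng was lower in all 3 replicate numbers of both peptides, with differences of -3.0 to -2.13 in N4 and -2.66 to -1.70 in Y3, and did not pass (adjusted p 1.00 and 0.819 with the block). The receptor gene Ifngr1 was 0.92 and 0.98 higher with Y3 and passed with the block with corticosteroid only (adjusted p 0.032). Of 12 adaptors and kinases that act upstream of interferon, Tlr7 and Ikbke passed as higher with the block in both comparisons. The shares of all genes called higher with the block were 1.7% without and 3.44% with corticosteroid. Tlr7 (1.45 and 1.32), a receptor for single-stranded RNA, lay above background on 8 of the 12 arrays. Ikbke (0.79 and 1.07) encodes a kinase of IRF3 and IRF7.

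**Figure D5:**
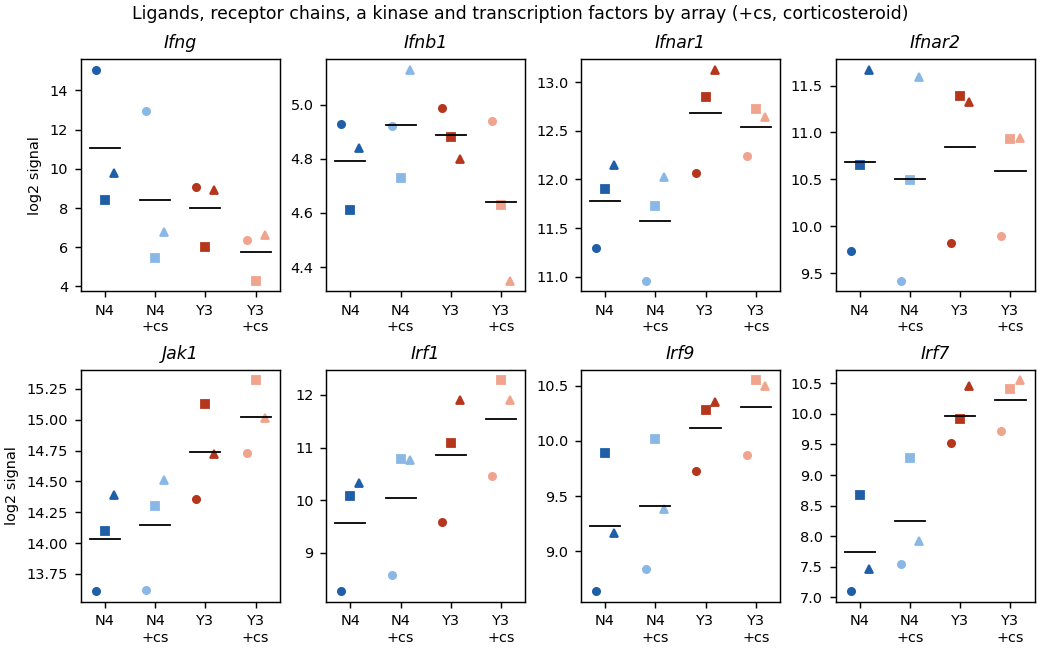
Log2 signal of 8 pathway genes on each of the 12 arrays, by group (horizontal), circles, squares and triangles being replicates 1, 2 and 3 and black bars the group means, each panel with its own vertical axis. Ifng is highest on the N4 replicate 1 array, at 15.06, and Ifnb1 stays at 4.35 to 5.13. Ifnar1, Jak1, Irf1, Irf9 and Irf7 have their higher means with Y3. The Ifnar2 means are nearly level, at 10.84 with Y3 against 10.69 with N4, and 10.59 against 10.5 with corticosteroid.

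Of 45 measured genes from a further list of interferon-stimulated genes, 17 were higher and 2 lower with Y3 with the block without corticosteroid. With corticosteroid 20 were higher and 2 lower, while 0 passed without the block. Over all genes the shares with the block were 1.7% higher and 1.24% lower without corticosteroid, and 3.44% and 3.09% with it. The median differences of the 45 genes were 0.81 and 0.73. Those higher included Sp110 (0.81 and 0.93), Uba7 (1.17 and 1.25), the E1 enzyme of ISG15, Epsti1 (1.47 and 1.40) and Gbp2 (1.52 and 1.61), a GTPase also induced by interferon gamma. The lower 2 were Ifitm2 and Ifitm3, membrane proteins that block viral fusion. Ifitm3 read 13.04, 11.20 and 8.04 with N4, 13.00, 10.91 and 7.86 with N4 plus corticosteroid, 12.37, 8.39 and 6.46 with Y3 and 11.58, 8.53 and 6.75 with Y3 plus corticosteroid, with wider gaps between replicate numbers than between group means. The differences were -2.19 and -2.42 for Ifitm2 and -1.68 and -1.63 for Ifitm3 (adjusted p 0.0463, 0.0197, 0.0437 and 0.0294 with the block).

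Markers of the cells in culture were set beside these values. All 8 CD8 T cell markers were above background on all 12 arrays, and Cd8b1 (0.79 and 0.88) and Cd3d (0.61 and 0.59) were higher with Y3 with the block. Cd2 alone of the 8 had the lower mean with Y3, 13.72 against 13.99 without and 13.37 against 13.82 with corticosteroid. Thy1 was nearly level, with means of 14.61 against 14.60 and 14.57 against 14.45. The summed linear signal of that list was 328300 to 381400 in N4 and 382800 to 616100 in Y3, and 302100 to 383000 and 421800 to 572300 with corticosteroid. Plasmacytoid dendritic cells are the best known makers of type I interferon, and 6 of their 9 markers, Siglech among them, lay below background on all arrays. Bst2 is on that list and among the 36 genes, so it was left out of the sum. The other 8 summed to 910.2 to 1757 in N4 and 620.3 to 1200 in Y3, and to 994.7 to 1388 and 597.4 to 1206 with corticosteroid. Of this sum 63.6% to 85.8% was Irf8, a factor of dendritic and other immune cells, whose differences of -0.69 and -0.58 did not pass. Of 9 B cell markers 6 lay below background on all arrays, Ms4a1 and Cd79a among them. The B cell sum was 6278 to 17720 in N4 and 21050 to 27900 in Y3, and 6696 to 15870 and 14480 to 20080 with corticosteroid, but 95.8% to 98.8% of it was Ighm, the IgM heavy chain (1.29 and 0.86, not passed). The other 8 summed to 262.5 to 276.5 in N4 and 247.4 to 371.8 in Y3, and to 226.2 to 272.7 and 257 to 332.8 with corticosteroid. Among them Cd79b passed with the block at 0.68 and 0.55 (adjusted p 0.0107 and 0.0133), and Ebf1 stood at -0.72 and -0.49 and did not pass. Of 9 conventional dendritic cell markers 7 lay below background, and the sum was 3747 to 4398 in N4 and 2088 to 2394 in Y3, and 2482 to 5413 and 1242 to 1936 with corticosteroid. It was mostly H2-Ab1, a class II chain, at -0.96 (not passed) and -1.52 (adjusted p 0.0163 with the block), while Cd74 stood at -0.49 and -0.35 and did not pass. H2-Aa, another class II chain on that list, was among the 7 below background. In the NK cell list, with 3 of 6 below background, Eomes, which activated CD8 T cells can also express, was 2.40 higher in both comparisons (adjusted p 0.0137 and 0.00761 with the block). The NK sum, which Gzma dominated on most arrays, was 238.1 to 6097 in N4 and 1134 to 6267 in Y3, and 948.3 to 153500 and 12370 to 107500 with corticosteroid. The macrophage sum, with 7 of 10 below background, was 599 to 1611 in N4 and 555.1 to 1431 in Y3, and 509.3 to 1515 and 455.2 to 1358 with corticosteroid. Below background were also 5 of 6 neutrophil and 4 of 4 erythroid markers. The part of these cells in the peptide difference was not tested. The array's negative controls had a higher median with Y3 in all 3 replicate numbers, by 0.11 ± 0.07 (SD) without and 0.20 ± 0.09 with corticosteroid. After centring each array on it the median differences of the 36 genes were 1.01 and 0.85, and 23 genes passed with the block in each comparison.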

How the data were processed

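Per the labels' protocols, total RNA was turned into biotin-labelled DNA, and per the file headers it was hybridised to Affymetrix MTA-1_0 arrays. The deposited signal intensities, linear and per transcript cluster, were made by the authors with gene-level SST-RMA (per the file headers). The submitters' processing notes name RMA and no version. No source used here gives the genome build of the array. The design had assumed log2 values, so log2 was taken here, with no pseudocount, filter or further normalization. Columns were matched to samples through a second deposited table with equal values. Of 65956 clusters 40123 carried a symbol, and the brightest cluster on average stood for each of 39462 genes.

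Genes were fitted with limma 3.58.1 in R 4.3.3 (12 arrays, group means, two-sided), and the code was tested on simulated data. Replicate numbers come from the titles. Deviations of same-numbered arrays from their group means correlated at 0.11 to 0.81 in all 18 pairs, above the 0.1 required, and those of other numbers at -0.70 to 0.48, so the numbers were taken to pair the arrays. These ranges overlap. Deviations from a group's mean cancel over its 3 arrays, so positive correlations of the same number push those of other numbers down. Members and lists were chosen with earlier results of these data known, and 2 genes of the pathway and marker lists are left out of all list counts and sums and not reported here. All 36 genes could be named, with array values for those passing a test, Irf7, Irf9, Stat2 and the 3 extremes per corticosteroid comparison and interaction. Array medians were 5.02 to 5.16 (log2), and the number of arrays limits precision. Where arrays of the dimmer group lay below the brightest background control, they were set at it and the fold is a lower bound. No fold is given where both groups lay below or the bound was under 1. Alternatives changed the block, the normalization, the filter on dim genes, the array weights, the moderation and the arrays used. Plots were drawn with Python 3.11.15.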

Additional observations from a re-analysis of the deposited data

Results flagged for a closer look

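For Oasl2 and Isg20 every N4 array with corticosteroid was above its same-numbered N4 array without, and every Y3 array was below, so the signs of the corticosteroid effect were opposite in the peptides. Over all genes 14.3% were higher in all 3 replicate numbers in N4-primed cells and 16.6% lower in Y3-primed cells. The difference of effects was below 0 in all 3 numbers for 13.4%. Some steps were small, as for Isg20 in replicate 3, from 7.70 to 7.72 with N4 and from 8.64 to 8.63 with Y3. The difference of effects (Y3 minus N4, log2) was -0.35 for Oasl2 and -0.28 for Isg20. The interaction test in limma did not pass for either (adjusted p 1.00; unadjusted p with the replicate block 0.0811 and 0.217). Oasl2 lay below background on all 12 arrays. Groups of 3 arrays were not tested for outliers.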

How the results depend on the processing

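The direction of the peptide difference held under every setting tried for 36 of 36 genes without corticosteroid and, with it, for all but Eif2ak2, which ran from -0.02 to 1.09 with arrays left out. The number of calls did not hold, and the cause was not tested. Settings that combine the block with another choice, or leave out a whole replicate number, were chosen after the data were seen. The pairing by replicate number moved the calls most. Without corticosteroid, the replicate block raised the calls over all genes from 12 to 1160 and over the 36 genes from 2 to 23, with quantile normalization added to 1193 and 24, with negative control centring to 1104 (430 higher, 674 lower) and 23, and with a level filter to 1514 and 26. With corticosteroid, the block raised 101 and 2 to 2576 and 21, and with the same additions to 2580 and 21, 3603 (709 higher, 2894 lower) and 23, and 2954 and 24.

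Without the block and without corticosteroid, the level filter gave 23 calls over all genes, array weights 78 and a fit of only the 6 arrays compared 0. Of the 36 genes, 1 passed under median centring, 1 under quantile normalization, 0 under negative control centring and 0 with only 6 arrays. With corticosteroid, the calls over all genes were 65 under median centring, 65 under negative control centring, 1562 with array weights, 20 with an intensity trend and robust moderation and 0 with 6 arrays. Of the 36 genes, 7 passed with array weights, 1 each under the level filter, median centring, quantile normalization and the trend, and 0 under negative control centring or with 6 arrays. With arrays left out, calls over all genes and over the 36 ran from 0 to 58 and 0 to 2 without corticosteroid (25 to 1341 and 2 to 25 with the block), and from 0 to 205 and 0 to 2 with it (79 to 2962 and 3 to 24 with the block).

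For corticosteroid in N4-primed cells the calls over all genes were 1 with the block, 1 with quantile normalization or the level filter added and 2 with negative control centring added, and 0 to 1 with arrays left out. In Y3-primed cells they were 3 with the block and negative control centring. Signs of these small differences turned under some settings. The median over the 36 genes ran from -0.13 to 0.38 in N4 and from -0.12 to 0.28 in Y3 with arrays left out, and the interaction from -0.32 to 0.21. Negative control centring, without or with the block, gave -0.08 in Y3 and -0.17 for the interaction. In N4, Usp18 ran from -0.87 to 0.50, Bst2 from -0.23 to 0.07, Herc6 from -0.22 to 0.17 (0.05 with array weights) and Irf7 from -0.01 to 0.96. In Y3, Usp18 ran from -0.89 to 0.10, Mx1 from -0.72 to 0.05, Rnf213 from -0.12 to 0.94 and Ifit1bl1 from -0.07 to 0.86, and in the interaction Rtp4 from -0.21 to 0.62, Samd9l from -0.03 to 0.68 and Mx1 from -0.90 to 0.21. With the 95th percentile of the negative controls as the line, 5 of the 36 genes lay above background on all arrays. That dim signal, and 3 arrays per group, limit what can be told of the rest.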
